A study of Drosophila melanogaster with 35 samples.

Results

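The windows described here are the 100-kb windows of the euchromatic autosome arms that replicated late in both wild-type tissues of the study, wing discs of *yw* larvae and mitotic follicle cells of OregonR adults. Replication timing (RT) was measured as log2 S/G1, which compares the depth-normalized reads of sorted S phase nuclei with those of G1 nuclei, and a low value means late replication. A window was taken when its midpoint lay on 2L below 21.35 Mb, on 2R above 5.7 Mb, on 3L below 22 Mb or on 3R above 5.2 Mb of dm6 and when its value was at or below the 25th percentile of these arm windows in both wild-type tissues. Of 13391 windows in all, 8980 lay on the arms and 893 (9.94%) passed. The windows were thus selected on the measured values of 2 of the 9 conditions, and these values are given as a description only. The percentile limits were −0.0294 for wing discs and −0.0406 for mitotic follicle cells. The 5 windows just inside the wing disc limit held −0.0302 to −0.0295 and the 5 just outside it −0.0294 to −0.0285, while the corresponding mitotic follicle cell windows held −0.0412 to −0.0406 and −0.0405 to −0.0402.

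All samples came from females. Wing imaginal discs, the larval epithelium that forms the adult wing, were taken from 3rd instar larvae of *yw*, of the null combination Rif1(1)/Rif1(2), written Rif1-, and of Rif1PP1/Rif1(1), written Rif1PP1, in which 1 allele carries a changed PP1-binding motif and the other is null. Follicle cells, the somatic epithelium around the egg chambers, were taken from adult ovaries of OregonR, Rif1-, Rif1PP1 and the heterozygote Rif1(2)/CyO, written Rif1-/+, and CyO is a balancer form of chromosome 2. Nuclei between 2C and 4C are called mitotic, although this gate may also take cells in their first endocycle, and nuclei between 4C and 8C of OregonR and Rif1- ovaries are called endocycling. The values were the mean of 2 S phase samples per condition and separate replicate values were not analysed here, so the differences below come without an SD or a test. Neighboring windows overlap and are not independent, and the read depth behind a window is unknown.

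Early- and late-replicating DNA is copied in domains of many kilobases, and late domains are typically poor in active genes. Rif1 binds protein phosphatase 1 (PP1), which can reverse the phosphorylation by the Dbf4-dependent kinase that activates loaded MCM helicases, and in flies Rif1 is also needed for the underreplication of late domains in polyploid cells. According to the methods of the study, G1 DNA of wing discs was the copy number control. In follicle cells a low value from late replication and one from incomplete replication therefore cannot be told apart. The tissues also differed in wild-type strain, library preparation and sequencing instrument, and these cannot be told apart from tissue.

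The sequences at the middle of the windows with the lowest values are shown so that they can be read beside sequences of high values on the same arms. They are the central 200 bases of the member window with the lowest mean of both wild-type values on 2L, 3L and 3R, and of the highest window that was early in both, from the Release 6 (dm6) reference sequence of RefSeq, plus strand. Capitals mark runs of at least 6 bases made of A and T only. The late 2L stretch (chr2L:17099901-17100100) lay between genes, the late 3L stretch (chr3L:13649901-13650100) in an intron of *bru3*, which encodes an RNA-binding protein, and the late 3R stretch (chr3R:28149901-28150100) in an intron of *CG34354*. The early 2L stretch (chr2L:12819901-12820100) lay in a coding exon of *kek1*, the early 3L stretch (chr3L:8749901-8750100) between genes, and the early 3R stretch (chr3R:14379901-14380100) in an annotated Doc3 transposable element.
late 2L: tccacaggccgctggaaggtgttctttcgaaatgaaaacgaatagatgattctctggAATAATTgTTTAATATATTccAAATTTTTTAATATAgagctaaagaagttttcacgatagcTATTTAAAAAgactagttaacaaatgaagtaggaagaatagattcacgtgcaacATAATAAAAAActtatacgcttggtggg
late 3L: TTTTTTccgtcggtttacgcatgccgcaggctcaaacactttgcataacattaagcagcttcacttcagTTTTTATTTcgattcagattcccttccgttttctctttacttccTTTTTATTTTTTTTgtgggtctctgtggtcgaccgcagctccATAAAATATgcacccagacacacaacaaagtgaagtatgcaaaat
late 3R: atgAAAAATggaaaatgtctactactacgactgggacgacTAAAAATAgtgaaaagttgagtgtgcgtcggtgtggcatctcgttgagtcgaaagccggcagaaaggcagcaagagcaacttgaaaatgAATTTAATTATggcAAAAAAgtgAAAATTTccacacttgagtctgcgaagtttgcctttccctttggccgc
early 2L: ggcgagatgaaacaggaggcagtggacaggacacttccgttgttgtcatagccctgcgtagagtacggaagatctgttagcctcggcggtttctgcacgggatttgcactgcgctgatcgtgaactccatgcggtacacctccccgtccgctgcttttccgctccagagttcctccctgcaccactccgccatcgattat
early 3L: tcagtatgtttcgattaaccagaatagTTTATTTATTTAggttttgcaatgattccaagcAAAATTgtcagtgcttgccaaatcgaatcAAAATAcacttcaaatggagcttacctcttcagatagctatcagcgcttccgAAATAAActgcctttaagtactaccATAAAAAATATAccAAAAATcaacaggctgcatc
early 3R: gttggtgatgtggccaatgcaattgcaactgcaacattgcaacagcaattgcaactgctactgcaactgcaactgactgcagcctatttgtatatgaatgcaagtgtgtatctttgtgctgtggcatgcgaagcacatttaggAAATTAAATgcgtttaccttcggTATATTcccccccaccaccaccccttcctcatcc
In the late stretches 54, 38 and 38 of the 200 bases fell in such A/T runs, and in the early ones 0, 49 and 15, so the counts of the groups overlapped. The late 2L window held −0.25 in wing discs and −0.67 in mitotic follicle cells, with 4 gene starts, the late 3L window −0.18 and −0.48 with 0 gene starts, and the late 3R window −0.28 and −0.41 with 1 gene start. The early windows held 0.07 and 0.45 on 2L, 0.13 and 0.45 on 3L, and 0.11 and 0.28 on 3R. Their gene starts numbered 1, 13 and 4.

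Late windows formed blocks rather than single windows. Merged where they overlapped or touched, the 893 windows gave 92 runs that covered 17.6 Mb, 19.6% of the 90.0 Mb of arm sequence. Run length had a median of 170 kb (quartiles 127.5 and 230 kb) and reached 520 kb. Only 8 runs were a single window, and the 37 runs of at least 10 windows held 650 windows (72.8%). The arms did not contribute equally. Of the arm's windows, 13.0% (351) were late in both tissues on 3R, 11.1% (237) on 2L, 7.61% (167) on 3L and 7.03% (138) on 2R. The last 2 windows of 2R were cut short by the scaffold end, and the shorter of them, of 6.936 kb, held −1.0 in Rif1- mitotic, −1.14 in Rif1- endocycling and −1.6 in Rif1-/+ follicle cells. The ranges below leave these 2 windows out.

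In the 7 conditions that did not select them, the median of the windows lay below that of all arm windows, by different amounts. In wild-type endocycling follicle cells their values ran from −0.47 to 0.05 with a median of −0.10, against a median of 0.01 over all arm windows. In Rif1-/+ mitotic follicle cells they ran from −0.44 to 0.13 with a median of −0.17, against 0.0. In Rif1- wing discs the range was −0.22 to 0.08 and the median −0.06, against 0.02. Relative to the arm median, the windows stood at −0.11, −0.16 and −0.08 in these 3 conditions, and also at −0.11 in Rif1- endocycling follicle cells.

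**Figure D1:**
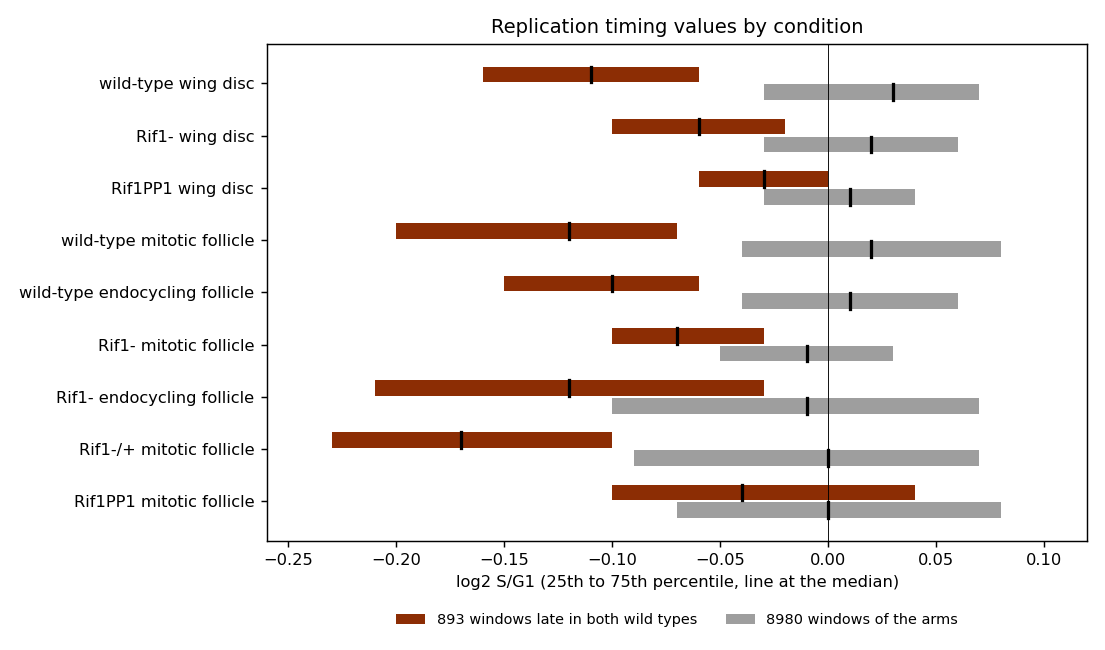
Values of the 893 windows (brown) and of all 8980 arm windows (gray) in the 9 conditions. Bars span the 25th to 75th percentile of log2 S/G1 over windows, and black lines are medians. The brown median is lowest in Rif1-/+ mitotic follicle cells (−0.17) and nearest to 0 in Rif1PP1 wing discs (−0.03).

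Rif1PP1 wing discs held −0.21 to 0.10 with a median of −0.03, against 0.01 over the arms. Rif1- mitotic follicle cells held −0.21 to 0.14 with a median of −0.07, against −0.01. Rif1PP1 mitotic follicle cells held −0.33 to 0.30 with a median of −0.04, against 0.0. The upper part of this last range lay far above the arm median. Rif1- endocycling follicle cells held −0.44 to 0.27 with a median of −0.12, against −0.01, in a condition whose values were also the most widely spread over the arms (interquartile range 0.17, against 0.07 to 0.16 in the other 8 conditions).

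Because the spread differed between conditions, the rank of a window among arm windows was used as a measure free of scale. By construction 25% of arm windows are at or below the 25th percentile of a condition, called its lowest ranks below. Of the 893 windows, 90.8% were in the lowest ranks in wild-type endocycling follicle cells and 78.8% in Rif1-/+ mitotic follicle cells. The share was 69.9% in Rif1- wing discs and 63.3% in Rif1- mitotic follicle cells. It was 55.8% in Rif1- endocycling follicle cells, 55.5% in Rif1PP1 wing discs and 40.0% in Rif1PP1 mitotic follicle cells. In Rif1PP1 mitotic follicle cells 35.7% of the windows lay above the arm median, against 13.8% in Rif1- mitotic follicle cells, 4.14% in Rif1-/+ and 0.224% in wild-type endocycling follicle cells.

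Windows late in only 1 wild-type tissue were counted in the same way. Of 1352 windows late in wing discs only, 61.5% were in the lowest ranks in Rif1- wing discs and 48.4% in Rif1PP1 wing discs. Of 1352 windows late in mitotic follicle cells only, 78.2% were in the lowest ranks in wild-type endocycling follicle cells and 59.2% in Rif1- mitotic follicle cells. In Rif1- endocycling follicle cells the classes late in 1 tissue hardly differed, at 32.8% of the windows late in follicle cells only and 33.4% of those late in wing discs only. In Rif1PP1 mitotic follicle cells the order turned: 64.5% of the windows late in follicle cells only were in the lowest ranks, and 40.0% of those late in both. Median GC content also differed between these classes, at 43.3% and 42.2%. The values of this condition fell with GC, as given below, and the part of GC in the turned order was not tested. The 833 windows early in both wild types were in the lowest ranks at 0.0% to 11.6%, the highest of these in Rif1- endocycling follicle cells.

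**Figure D2:**
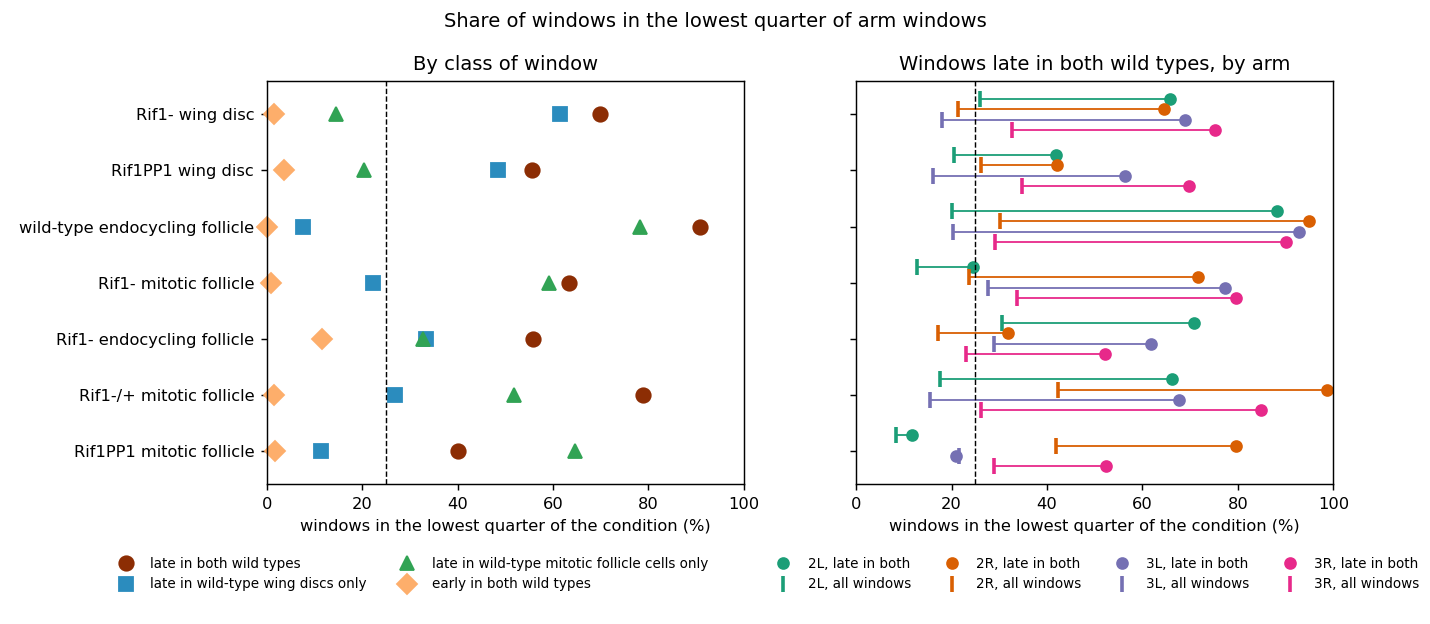
Percent of windows at or below the 25th percentile in each of the 7 conditions that did not select them. Left, windows late in both wild types, late in 1 only or early in both. Right, windows late in both by arm (circles), joined to the share over all windows of that arm (bars), and the dashed line is the 25% of all arms together. On 2L and 3L the circle and bar of Rif1PP1 mitotic follicle cells nearly meet, at 11.8% and 8.26% and at 21.0% and 21.5%.

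A window could be in the lowest ranks in 0 to 7 of these conditions. All 7 were met by 70 of the 893 windows (7.84%), against 1.14% of all arm windows, and none by 5 windows (0.56%), against 34.1%. Most windows met 4 (210 windows), 5 (208) or 6 (195).

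The shares depended on the arm in the follicle cell mutants. In Rif1PP1 mitotic follicle cells 79.7% of the late windows on 2R were in the lowest ranks and 52.4% of those on 3R, but 21.0% on 3L and 11.8% on 2L. Over all windows of these arms the shares were 41.8%, 28.9%, 21.5% and 8.26%, so on 3L and 2L the late windows were near the share of their arm. In Rif1- mitotic follicle cells the late windows of 2L stood at 24.5% (all 2L windows 12.7%), and those of 2R, 3L and 3R at 71.7%, 77.2% and 79.5%. In Rif1- endocycling follicle cells the order was another one, with 70.9% on 2L (all 2L windows 30.6%) and 31.9% on 2R (17.2%). In Rif1-/+ mitotic follicle cells, which carry the chromosome 2 balancer, the share was 98.6% on 2R (all 2R windows 42.3%) and 66.2% on 2L (17.5%). The part of the balancer was not tested. In wing discs the arms differed less, from 64.5% on 2R (all 2R windows 21.3%) to 75.2% on 3R (32.7%) in Rif1- and from 41.8% on 2L (20.6%) to 69.8% on 3R (34.8%) in Rif1PP1. Over all windows 3R also had the highest share, but 3L had the lowest, at 17.9% in Rif1- and 16.2% in Rif1PP1. The late windows of 3L stood at 68.9% and 56.3%, so the order of the arms was not the same.

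The order of the arms in these shares followed the GC content of their late windows in Rif1- endocycling, Rif1PP1 mitotic and Rif1-/+ mitotic follicle cells. It did not in Rif1- mitotic follicle cells or in the wing disc mutants. The late windows of 2L had a median GC content of 40.4%, those of 2R 43.2%, those of 3L 42.1% and those of 3R 42.5%. Over the 893 windows, which share libraries and overlap, Spearman's rho between GC and the value was 0.85 in Rif1- endocycling follicle cells and −0.57 in Rif1PP1 mitotic follicle cells (0.76 and −0.45 over all arm windows), and between −0.29 and 0.28 in the other 7 conditions. Of the 298 windows with the lowest GC (37.9 to 41.1%), 96.3% were in the lowest ranks in Rif1- endocycling follicle cells, and of the 298 with the highest GC (42.9 to 49.1%), 10.4%. In Rif1PP1 mitotic follicle cells the same windows stood at 13.4% and 57.7%. In Rif1- wing discs they stood at 71.1% and 69.1%, and in wild-type endocycling follicle cells at 94.0% and 89.9%. With the median trend against GC removed from each condition, the share of the 893 windows in the lowest ranks was 62.8% in Rif1- endocycling and 46.8% in Rif1PP1 mitotic follicle cells. After this removal the share in Rif1PP1 mitotic follicle cells was also below that in the other 6 conditions. The removal was chosen after the data were seen, and the part of GC or of whole arms in that share was not tested.

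A comparison with the surroundings does not depend on the level of a whole arm. Each window was set against the mean of the windows 200 to 300 kb away on both sides, which could be done for 886 of the 893 windows. Of these, 93.2% were lower than their flanks in Rif1-/+ mitotic, 91.2% in wild-type endocycling, 87.1% in Rif1- mitotic, 79.6% in Rif1- endocycling and 79.2% in Rif1PP1 mitotic follicle cells, and 84.7% in Rif1- and 73.9% in Rif1PP1 wing discs. Over all arm windows the share ranged from 48.5 to 51.5% in these conditions. In Rif1PP1 mitotic follicle cells it was 78.9% on 2L, 80.9% on 2R, 82.0% on 3L and 77.5% on 3R, so the late windows of 2L were local low points in this mutant although their values were high.

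In log2 units, low points were shallower in Rif1- and Rif1PP1 wing discs and mitotic follicle cells than in the other 3 of 7 conditions. These depths were not adjusted for spread. The SD over arm windows was 0.07 and 0.05 in Rif1- and Rif1PP1 wing discs, and 0.07 and 0.11 in the same mitotic follicle cell genotypes. It was 0.12 in Rif1-/+ mitotic, 0.09 in wild-type endocycling and 0.14 in Rif1- endocycling follicle cells. The median difference from the flanks was −0.06 in Rif1- and −0.04 in Rif1PP1 wing discs, −0.06 in Rif1- and −0.04 in Rif1PP1 mitotic follicle cells, −0.14 in Rif1-/+ mitotic, −0.10 in wild-type endocycling and −0.11 in Rif1- endocycling follicle cells. Windows lower than their flanks by over 0.1 made up 31.2% in Rif1- wing discs (9.98% of all arm windows), 7.79% in Rif1PP1 wing discs (3.38%), 50.6% in wild-type endocycling follicle cells (13.1%), 19.0% in Rif1- mitotic (6.25%), 52.1% in Rif1- endocycling (22.8%), 68.4% in Rif1-/+ mitotic (21.4%) and 16.5% in Rif1PP1 mitotic follicle cells (7.46%). In every one of the 7 conditions the share exceeded that of all arm windows.

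**Figure D3:**
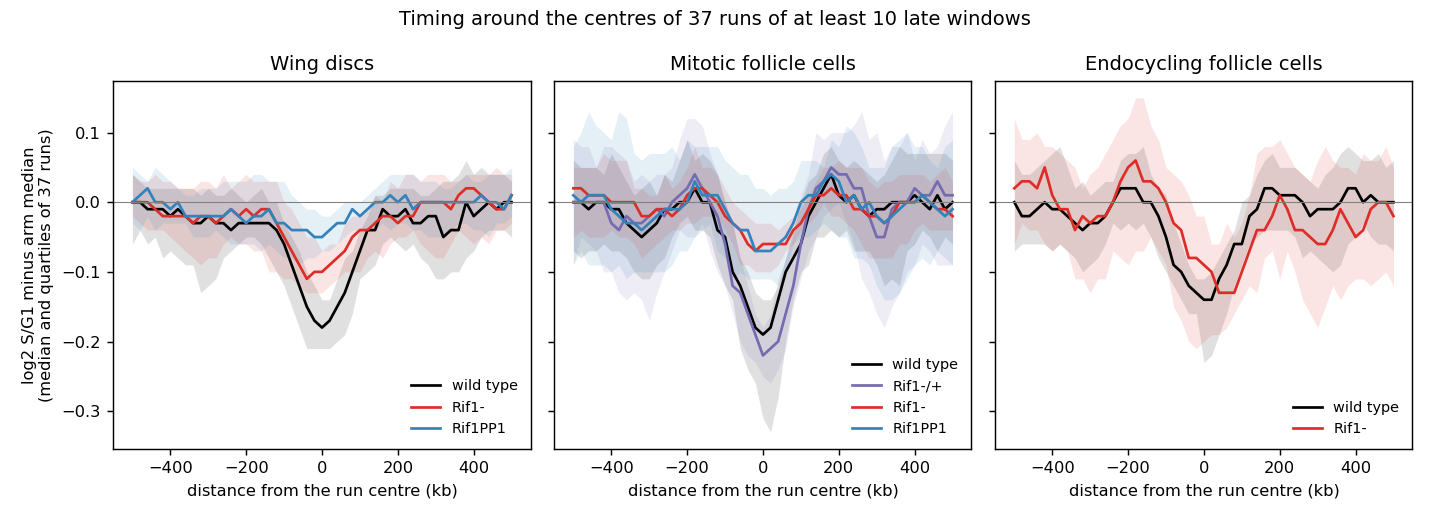
Values around the centers of the 37 runs of at least 10 late windows, as log2 S/G1 minus the median of all arm windows. Lines are medians and shaded bands the quartiles over runs, and the x axis is the distance from the run center in kb. At the center the medians were −0.18, −0.10 and −0.05 in wild-type, Rif1- and Rif1PP1 wing discs, −0.19, −0.22, −0.06 and −0.07 in wild-type, Rif1-/+, Rif1- and Rif1PP1 mitotic follicle cells, and −0.14 and −0.09 in wild-type and Rif1- endocycling follicle cells.

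Differences between conditions were taken after each condition was centered on its median over arm windows, and windows past 0.1 in size were counted. Of the 14 comparisons, 6 use a wild-type condition that selected the windows, so their counts are given and nothing is read from them. Rif1- minus wild-type wing discs gave 20.6% of the windows higher and 1.34% lower (4.01% and 1.89% of all arm windows). Rif1PP1 minus wild-type wing discs gave 52.4% higher and 0.448% lower (9.69% and 1.96%). In mitotic follicle cells against wild type, Rif1- gave 39.2% and 0.112% (9.19% and 5.16%), with 8.29% lower after quantile normalization of the pair, Rif1PP1 46.5% and 3.25% (12.2% and 10.1%) and Rif1-/+ 19.5% and 11.3% (12.4% and 11.2%). Wild-type endocycling minus mitotic follicle cells gave 16.6% and 0.0% (2.22% and 0.223%).

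The other 8 comparisons use conditions that did not select the windows, although they share conditions with each other. Those with wild-type endocycling follicle cells are still not free of the selection. These cells share strain and tissue with the mitotic follicle cells that selected the windows, and 90.8% of the windows were in their lowest ranks. Differences from them are therefore given as a description only, and the part of the selection in them was not tested. Rif1- endocycling follicle cells differed from wild-type endocycling follicle cells in both directions, with 32.1% of the windows higher and 18.6% lower, against 21.5% and 22.5% of all arm windows. The median difference was 0.03, and it was −0.05 over the windows early in both wild types. With the GC trend removed the shares were 29.6% higher and 1.68% lower (9.92% and 6.98% of all arm windows), so the share of lower windows was smaller without that trend. Quantile normalization of the pair, which gives both conditions the same spread, gave 44.3% higher, 8.17% lower and a median of 0.08. The shares of all arm windows were not computed after quantile normalization, so no share given after it can be set against the arms.

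Mitotic Rif1- follicle cells set against wild-type endocycling follicle cells gave 29.8% higher and 0.112% lower (7.03% and 3.91%), with 6.16% lower after quantile normalization, and Rif1PP1 mitotic follicle cells gave 39.2% and 6.16% (12.3% and 11.8%). Rif1-/+ mitotic follicle cells gave 6.94% higher and 19.9% lower (9.23% and 10.7%) with a median of −0.04. Quantile normalization turned this comparison, to 13% higher, 6.83% lower and a median of 0.01. Against Rif1-/+, the late windows were higher in Rif1- mitotic follicle cells in 50.7% and lower in 0.784% (15.3% and 10.4%), with a median difference of 0.10. Quantile normalization of this pair left 26.1% higher. Before that normalization late windows thus stood higher in Rif1- than in Rif1-/+ more often than all arm windows did. The size of that share rested on the scale.

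Rif1PP1 and Rif1- were also compared directly within each tissue. Rif1PP1 minus Rif1- wing discs gave 5.04% of the windows higher and 0.0% lower (0.88% and 0.122% of all arm windows) with a median of 0.04, and 0.672% higher after quantile normalization of the pair. Rif1PP1 minus Rif1- mitotic follicle cells gave 19.5% higher and 7.17% lower (9.09% and 8.61%) with a median of 0.02, and 2.69% and 4.03% without the GC trend, when all arm windows had 1.98% and 4.84%. Rif1- endocycling minus Rif1- mitotic follicle cells gave 7.73% higher and 37.2% lower (17.8% and 21.0%) with a median of −0.06, and after quantile normalization the median was 0.02. Without the GC trend it gave 2.02% higher and 5.6% lower (3.57% and 2.83%), so both the direction and the shares rested on the processing.

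The longest runs show what lies in these blocks. Run percentiles below are the mean rank of the run's windows among arm windows, from 0 (latest) to 100. Of 61 runs of at least 5 windows, the mean percentile was at most 25 in 58 runs in wild-type endocycling follicle cells, in 50 in Rif1-/+ mitotic, 39 in Rif1- mitotic, 31 in Rif1- endocycling and 25 in Rif1PP1 mitotic follicle cells, and in 37 in Rif1- and 31 in Rif1PP1 wing discs. It was over 50 in 18 runs in Rif1PP1 mitotic follicle cells. These were 7 of 14 runs on 2L, 2 of 11 on 2R, 6 of 9 on 3L and 3 of 27 on 3R. Over all windows of these arms 70.8%, 33.3%, 56.2% and 40.7% lay above the arm median in this condition, so 2L and 3L stood high as whole arms. The late windows of 2L had a median of 0.13, against 0.06 over all 2L windows, and those of 3L 0.01 against 0.02.

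**Figure D4:**
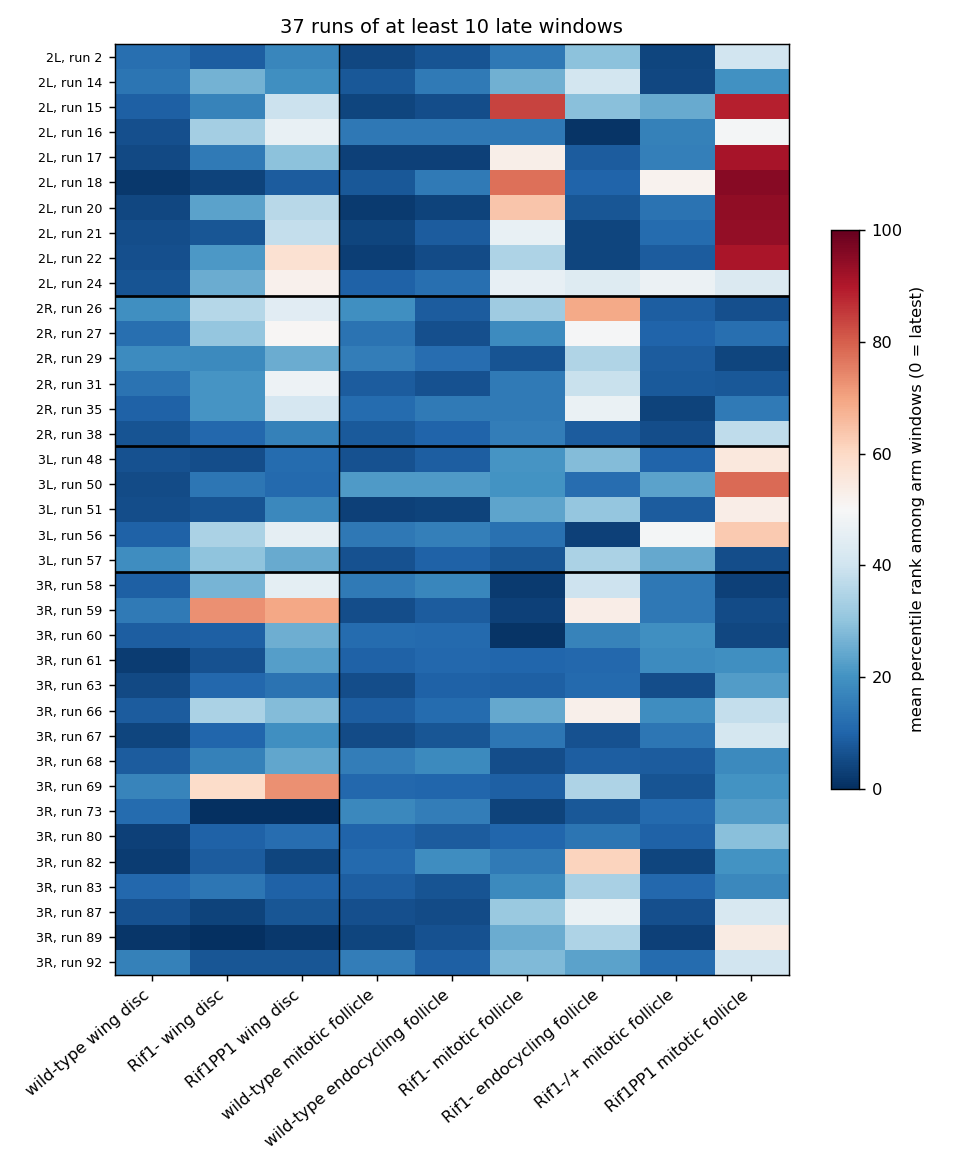
Mean percentile of the 37 runs of at least 10 windows in the 9 conditions, in order along the arms, where blue is late and red early. The wild-type wing disc and wild-type mitotic follicle columns selected the windows. The red block in the last column is runs 15, 17, 18, 20, 21 and 22 of 2L, at percentiles 88.8 to 95.7 in Rif1PP1 mitotic follicle cells. Of all 2L windows, 70.8% lay above the arm median in that condition.

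The longest run (run 20, chr2L:16880001-17400000, 43 windows) was also the lowest in the wild types on 2L. It held *beat-IIIa*, *beat-IIIb* and *beat-IIIc*, which encode cell surface proteins of the immunoglobulin superfamily related to Beaten path, an axon guidance protein, and the gustatory receptor genes *Gr36a*, *Gr36b* and *Gr36c*. Its mean value was −0.17, −0.06 and −0.02 in wild-type, Rif1- and Rif1PP1 wing discs. In mitotic follicle cells it was −0.43 in wild type, −0.24 in Rif1-/+, 0.02 in Rif1- and 0.21 in Rif1PP1, and in endocycling follicle cells −0.30 in wild type and −0.22 in Rif1-. The window nearest to *beat-IIIa* held −0.64 in wild-type and 0.21 in Rif1PP1 mitotic follicle cells. The wild-type value is among those that selected the window.

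The same arm held 5 more runs of at least 10 windows with a high percentile in Rif1PP1 mitotic follicle cells. Run 17 (chr2L:14680001-15020000, with *side-II*, whose family binds Beat proteins, and the start of *GABA-B-R1*, a metabotropic GABA receptor) had means of −0.36 in wild-type, −0.01 in Rif1- and 0.16 in Rif1PP1 mitotic follicle cells. Run 15 (chr2L:11480001-11820000, with *kek2*, a leucine-rich repeat membrane protein, and *crol*, a zinc finger protein) had −0.26, 0.06 and 0.14. Run 21 (chr2L:17520001-17750000) held *Sytalpha*, a synaptotagmin, and *Oli*, a bHLH transcription factor, and had −0.25, −0.02 and 0.18. Among runs of at least 5 windows it also showed the largest mean difference between Rif1PP1 and Rif1- wing discs, at −0.01 against −0.10. In Rif1- endocycling follicle cells runs 17 and 21 were again low, at −0.21 and −0.26.

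Run 16 on 2L (chr2L:12110001-12320000, mean GC 38.7%) and run 64 on 3R (chr3R:11270001-11450000, mean GC 45.1%) were, among runs of at least 5 windows, the lowest and the highest for Rif1- minus wild-type endocycling follicle cells. Run 16 held *bru1*, an RNA-binding translational regulator known from the fly ovary, and the window nearest to it had −0.07 in wild-type and −0.36 in Rif1- endocycling follicle cells. Run 64 held *pros*, a homeodomain protein of neural differentiation, whose window had −0.13 and 0.08.

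On 3L, run 51 (chr3L:13500001-13910000, 32 windows) lay largely in *bru3*, a gene of 281 kb. The window nearest to the middle of the gene held −0.18, −0.16 and −0.09 in wild-type, Rif1- and Rif1PP1 wing discs. In mitotic follicle cells it held −0.47 in wild type, −0.39 in Rif1-/+ and −0.04 in both mutants, and in endocycling follicle cells −0.36 in wild type and −0.04 in Rif1-. Run 48 (chr3L:4680001-5180000, 41 windows) held *Con*, a leucine-rich repeat adhesion protein of the neuromuscular system, with −0.13, −0.16 and −0.04 in the wing disc conditions and −0.35, −0.07 and 0.04 in wild-type, Rif1- and Rif1PP1 mitotic follicle cells.

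On 3R, run 89 (chr3R:27960001-28320000, with *trv*, *betaTub97EF* and *Mst98Ca*) was the lowest in the wild types. It remained at percentiles 0.378 and 1.79 in Rif1- and Rif1PP1 wing discs and stood at 25 and 54.2 in Rif1- and Rif1PP1 mitotic follicle cells. Run 58 (chr3R:5690001-6130000) held *side-III* and 5 odorant binding protein genes of the Obp83 group. The window nearest to *side-III* had −0.17, −0.08 and −0.01 in wild-type, Rif1- and Rif1PP1 wing discs, but −0.10, −0.17 and −0.22 in the same mitotic follicle cell genotypes.

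Run 59 beside it (chr3R:6160001-6370000) had percentiles of 72.7 and 69.4 in Rif1- and Rif1PP1 wing discs, and 3.13 and 5.17 in Rif1- and Rif1PP1 mitotic follicle cells. On 2R, runs 27 (chr2R:8320001-8590000, with *pdm3*, a POU domain transcription factor, and larval cuticle genes *Lcp1* to *Lcp4*) and 31 (chr2R:10180001-10460000, with *SLO2*, a potassium channel, and *Hr3*, a nuclear receptor) were the longest. The window nearest to *SLO2* had −0.14 in wild-type, −0.10 in Rif1- and −0.15 in Rif1PP1 mitotic follicle cells, and −0.10, −0.08 and 0.0 in the same wing disc genotypes. Run 38 (chr2R:17850001-18110000, with *Elk*, a potassium channel, and *dpr13*) was the lowest in the wild types on 2R, and the window nearest to *dpr13* had −0.21 in wild-type and −0.08 in both Rif1- and Rif1PP1 mitotic follicle cells.

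Only 4 of the 61 runs had a mean percentile of at most 25 in all 7 conditions, and all 4 lay on 3R (runs 61, 63, 68 and 73). This arm held 27 of the 61 runs. Over all 3R windows the share in the lowest ranks ran from 23.1% in Rif1- endocycling follicle cells to 34.8% in Rif1PP1 wing discs. Run 73 (chr3R:16710001-16950000) held the starts of the Bithorax complex genes *Ubx* and *abd-A*, Hox genes that set segment identity. Its mean value was −0.08 in wild-type, −0.20 in Rif1- and −0.17 in Rif1PP1 wing discs, at percentiles 11.6, 0.259 and 0.206, and −0.07, −0.13 and −0.08 in wild-type, Rif1- and Rif1PP1 mitotic follicle cells.

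The late windows were poor in genes. They held a median of 6 protein-coding gene starts per 100 kb, against 12 over all arm windows, 12 in windows early in both wild types, 9 in windows late in wing discs only and 12.5 in windows late in mitotic follicle cells only. Protein-coding genes covered 62.9% of a late window in the median, against 76.6% over the arms, and 3.47% of late windows had no gene start, against 1.16%. The merged windows held 1531 of the 11220 protein-coding genes that start on the arms (13.6%, on 19.6% of the length), or 87.0 starts per Mb against 125. Of the 207 genes over 50 kb, 47 (22.7%) started there, which is near the 19.6% of the length. The median gene that started there was 1.91 kb long, against 2.13 kb elsewhere on the arms. Median GC content was 42.2%, against 42.7% over the arms, and soft-masked repeat sequence made up 17.0% against 15.4%. Neither set the late windows far apart, since windows early in both wild types had medians of 42.2% and 16.2%. Windows late in wing discs only had 42.0% and 16.6%, and those late in mitotic follicle cells only 43.3% and 14.5%.

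Gene families differed in how many of their members started in late windows, as counted beside the 13.6% of all genes. Neighboring genes of a family share a run and are not independent. Of the *beat* and *side* genes, which encode interacting immunoglobulin superfamily proteins of axons and muscles, 15 of 22 (68.2%) did, in 10 runs. Of the *dpr* and *DIP* genes, another set of interacting surface proteins used in synaptic partner choice, 9 of 23 (39.1%) did, in 8 runs. Of the gustatory receptor genes 18 of 54 (33.3%) did, in 8 runs, with 6 of the *Gr22* group in a single one, and of the neurotransmitter receptor genes 9 of 33 (27.3%), in 5 runs.

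**Figure D5:**
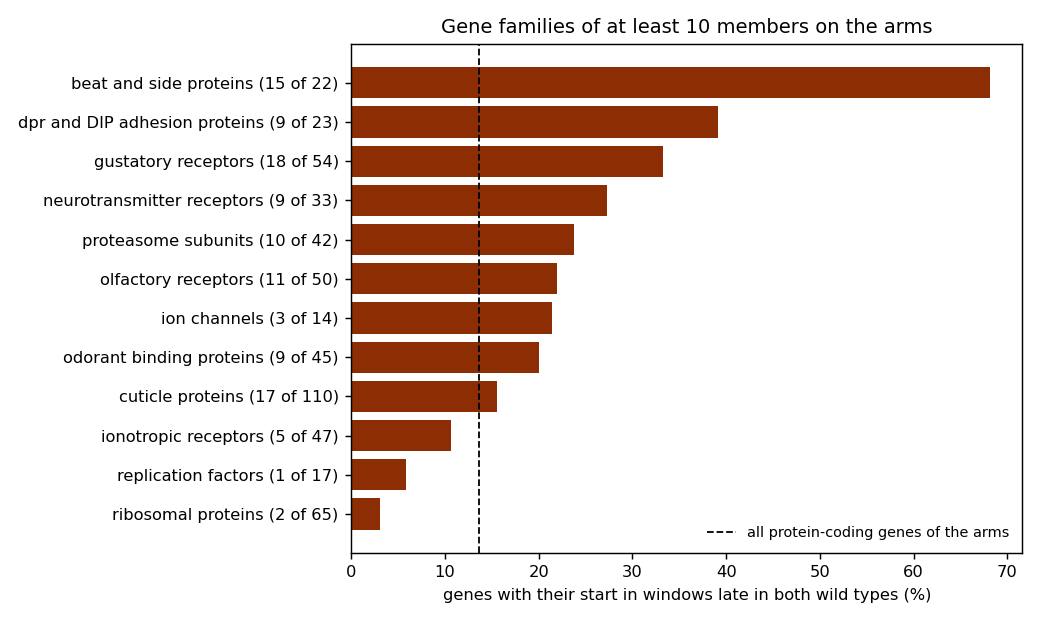
Percent of the genes of each listed family that start in windows late in both wild types, for families with at least 10 genes on the arms. The dashed line is the 13.6% of all protein-coding genes. The *beat* and *side* genes stand at 68.2% and ribosomal protein genes at 3.08%.

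Olfactory receptors had 11 of 50 (22%), odorant binding proteins 9 of 45 (20%), ion channels 3 of 14 (21.4%) and ionotropic receptors 5 of 47 (10.6%). Cuticle proteins had 17 of 110 (15.5%), 8 of them in run 60, and this list took in *Acp33A*, whose name marks an accessory gland protein. Proteasome subunits had 10 of 42 (23.8%), among them *Prosalpha3T*, *Prosalpha4T2*, *Rpt6R*, *Prosbeta4R1*, *Prosbeta4R2* and *Prosbeta5R2*, which are paralogs of the general subunits. The windows nearest to the 10 genes had medians of −0.03 in wild-type wing discs and −0.01 in wild-type mitotic follicle cells. The second median lay above the limit of −0.0406. Ribosomal protein genes had 2 of 65 (3.08%, *RpL7* and *RpL27A*) and replication factors 1 of 17 (*Orc6*, a subunit of the origin recognition complex). The Bithorax complex had 2 of 3 and the Antennapedia complex 1 of 8 (*lab*), while none of 6 NK homeobox genes, 3 Iroquois genes or 3 histone genes on the list started there.

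The 15 *beat* and *side* genes showed the range of the mutant values within a family. The windows nearest to them ran from −0.24 to −0.04 in wild-type, −0.15 to 0.04 in Rif1- and −0.11 to 0.07 in Rif1PP1 wing discs, with medians of −0.17, −0.08 and −0.05. In mitotic follicle cells they ran from −0.64 to 0.02 in wild type, −0.17 to 0.10 in Rif1- and −0.22 to 0.29 in Rif1PP1, with medians of −0.15, −0.04 and 0.03. The high Rif1PP1 follicle values belonged to the genes on 2L, such as *beat-IIIc* (0.29) and *beat-Ic* (0.18), and the low ones to *side-III* (−0.22) and *side-VI* (−0.11) on 3R. In Rif1- endocycling follicle cells the same genes had −0.16 for *beat-IIIc*, −0.24 for *beat-Ic*, −0.10 for *side-III* and −0.22 for *side-VI*.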

How the data were processed

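The deposited values are log2 S/G1 ratios, which the authors made by aligning reads to dm6 with Bowtie2 2.3.2, filtering on mapping quality with SAMtools 1.9 (versions as in the submitters' processing notes), counting reads per 100-kb window every 10 kb, normalizing to read depth and averaging the ratio to G1 over replicates, without quantile normalization. Which G1 sample served the mutant wing discs is not given in the sources used here. Percentiles, differences and medians were computed with Python 3.11.15, numpy 2.4.6 and pandas 2.3.3, and plots with matplotlib 3.10.9. Genes came from Ensembl release 115, GC and soft-masked bases from the RefSeq Release 6 genome. A gene's value is that of the window whose midpoint is nearest to its middle. Named runs were, per arm, the 2 longest and the lowest of at least 5 windows, and those at the extremes of 2 mutant differences, and named genes the 3 longest inside and members of listed families. Runs 17, 18, 22, 59, 60, 61, 63, 68 and 73, the comparison with flanks and the profile around runs were chosen after their values were seen. The windows and lists were chosen with earlier results of these data known. The counting was run on simulated data, in which the Rif1PP1 mitotic follicle values were replaced by the Rif1- values plus noise far below the threshold. There 200 of 200 windows planted with a change of 0.4, well past the threshold of 0.1, were called in the right direction. With so little noise this outcome was fixed beforehand, so it checks the direction of the counting and not the calls in the real data. The RNA samples, and 1 G1 sample whose labels disagree, were left out.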

Additional observations from a re-analysis of the deposited data

How the results depend on the processing

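Of 2 choices in the rule, only a percentile limit of 33 moved the number of windows by over 1.5 times, to 1353. The 7 shares at or below the 25th percentile changed by less than 1.5 times under every alternative run. The comparisons depended more on scale. Except for removal of the GC trend, the shares of all arm windows were not computed under the alternatives below. In percent of windows in the more frequent direction, quantile normalization in pairs gave 7.39 (Rif1- minus wild-type wing disc), 21.2 (Rif1PP1 minus wild-type wing disc), 0 (wild-type endocycling minus mitotic follicle), 6.83 (lower, Rif1-/+ mitotic minus wild-type endocycling follicle), 0.672 (Rif1PP1 minus Rif1- wing disc), 26.1 (Rif1- minus Rif1-/+ mitotic follicle) and 20.3 (lower, Rif1- endocycling minus mitotic follicle). It also gave 6.16 lower for Rif1- mitotic and 13 higher for Rif1-/+ mitotic, both minus wild-type endocycling follicle. It turned the median difference to 0.01 for Rif1-/+ mitotic minus wild-type endocycling follicle and to 0.02 for Rif1- endocycling minus Rif1- mitotic follicle. Normalizing all conditions together gave 12.2 for Rif1-/+ minus wild-type mitotic follicle. A threshold of 0.2 gave, in the order of the report's 14 comparisons, 0, 2.02, 24.2, 30, 5.82, 1.01, 7.73, 14.1, 24, 0.672, 0, 0.448, 21.6 and 15.8. For Rif1PP1 minus Rif1- wing disc, values without centering gave 2.91. Removal of the GC trend, chosen after seeing the data, gave 2.8 for the same comparison, 2.69 for Rif1PP1 minus Rif1- mitotic follicle and 5.6 for Rif1- endocycling minus mitotic follicle, and in the less frequent direction 0.336 lower for Rif1- mitotic and 2.24 higher for Rif1-/+ mitotic, both minus wild-type endocycling follicle. The cause of these changes was not tested. No paired analysis was possible because the columns hold only the mean of the replicates, and for the same reason no replicate could be left out.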
